A study of Rattus norvegicus with 6 samples.

Results

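The genes described here encode the secreted WNT ligands, their Frizzled and LRP receptors, the R-spondins with their LGR receptors and the ligase Rnf43, the SFRP and DKK inhibitors, and 4 intracellular members of the pathway. They were measured in newborn rat ovaries cultured with or without connective tissue growth factor (CTGF), a secreted protein of the extracellular matrix. The genes were chosen by name, with earlier results of these data known. A probe set was taken when its only symbol in the platform annotation began with Wnt, Fzd, Sfrp, Dkk or Rspo followed by a digit, or was Lrp5, Lrp6, Lgr4, Lgr5, Rnf43, Znrf3, Axin1, Axin2, Ctnnb1 or Cby1. This gave 44 genes with 1 probe set each, of 14324 genes named by 1 symbol and of 27342 probe sets in all. By role they are 17 WNT ligands, 7 Frizzled receptors, 2 LRP co-receptors, 6 R-spondins, LGR receptors and ligases, 8 secreted inhibitors and 4 intracellular members. RefSeq holds 51 rat genes that match the rule, and 7 of them (Fzd10, Fzd3, Fzd7, Rspo4, Wnt11, Wnt7a and Znrf3) had no probe set with a single symbol and were not analysed here.

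The ovaries came from female Sprague-Dawley pups on the day of birth and were kept whole on floating filters. Control ovaries were cultured for 24 h without treatment, and CTGF ovaries for 24 h with human CTGF at 500 ng/ml. Each of the 3 control and 3 CTGF samples was a pool of 2 to 3 ovaries from littermates that shared a culture well, and was hybridized to 1 array. Each control sample was paired with the CTGF sample of the same replicate number, taken to share its organ culture date. These pairs are called pairs 1 to 3. All samples had been through culture, so that a change made by the culture itself is in both groups. The question put to the arrays was which transcripts CTGF alters within 1 day, while nests of oocytes break down and primordial follicles assemble.

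WNT proteins are secreted ligands that bind Frizzled receptors together with the co-receptors Lrp5 and Lrp6, which stops the destruction complex built on Axin from degrading β-catenin (Ctnnb1), so that β-catenin reaches the nucleus and acts with TCF and LEF factors on target genes such as Axin2. R-spondins bound to LGR receptors keep Rnf43 and Znrf3 from removing Frizzled from the cell surface, SFRP proteins bind WNTs outside the cell, and most DKK proteins block the LRP co-receptors. In the female gonad Wnt4 and Rspo1 are known for directing somatic cells to the pregranulosa fate through β-catenin.

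Values are un-logged signals of the deposited log2 data, and differences are on the log2 scale, CTGF minus control. RMA, the method that gave them, corrects background, equalises the distributions of the arrays and summarises the probes of each set. Averaged over its pair, every probe set had the same log2 value in pairs 1, 2 and 3 to within 0.005, so that the deposited data hold no difference between culture dates. The control and CTGF values of a gene therefore do not overlap exactly when its difference has the same sign in all 3 pairs. Median log2 signals of the arrays lay between 5.82 and 5.84, and with 3 arrays a group the number of arrays sets the precision. A background level was set at a signal of 43.2, the 95th percentile of 42 genes of other organs such as lens and pancreas, and 55.3% of all probe sets were above it. All 8 measured germ cell markers and 9 of 10 measured pregranulosa markers, 3 of the latter being WNT pathway genes, were above this level. Foxl2, Nobox and Figla had no named probe set.

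Most transcripts of the WNT pathway had nearly the same signal in CTGF and control ovaries. The intracellular β-catenin antagonist Cby1 had a lower signal in each CTGF array than in every control array. None of the 44 genes had an adjusted p under 0.05 in limma with Benjamini-Hochberg adjustment, and 0.0% of all probe sets did, the smallest adjusted p being 0.994. At an unadjusted p under 0.05 there was 1 of the 44 genes (2.27%), beside 915 or 3.35% of all 27342 probe sets. In the methods' 2-way test, which does not share the spread between probe sets, 0 probe sets again had an adjusted p under 0.05, and 3 of the 44 genes (Cby1, Rspo1 and Wnt3a, 6.82%) had an unadjusted p under 0.05 beside 1147 or 4.2% of the 27316 probe sets with a p. Counts this small are no result about the pathway as a whole. Differences of the 44 genes ran from -0.35 to 0.15, with a median of 0.02 beside -0.0033 over all probe sets. The median size of a difference was 0.04 beside 0.05 over all probe sets. By direction, 25 genes were higher with CTGF, 17 were lower and 2 had a difference of 0. The 95% intervals of all 44 genes lay inside a 1.5-fold change in either direction, the lowest bound being a ratio of 0.696 and the highest one of 1.27. For the 19 genes not above background these intervals describe a dim signal and do not bound a change in the transcript.

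**Figure D1:**
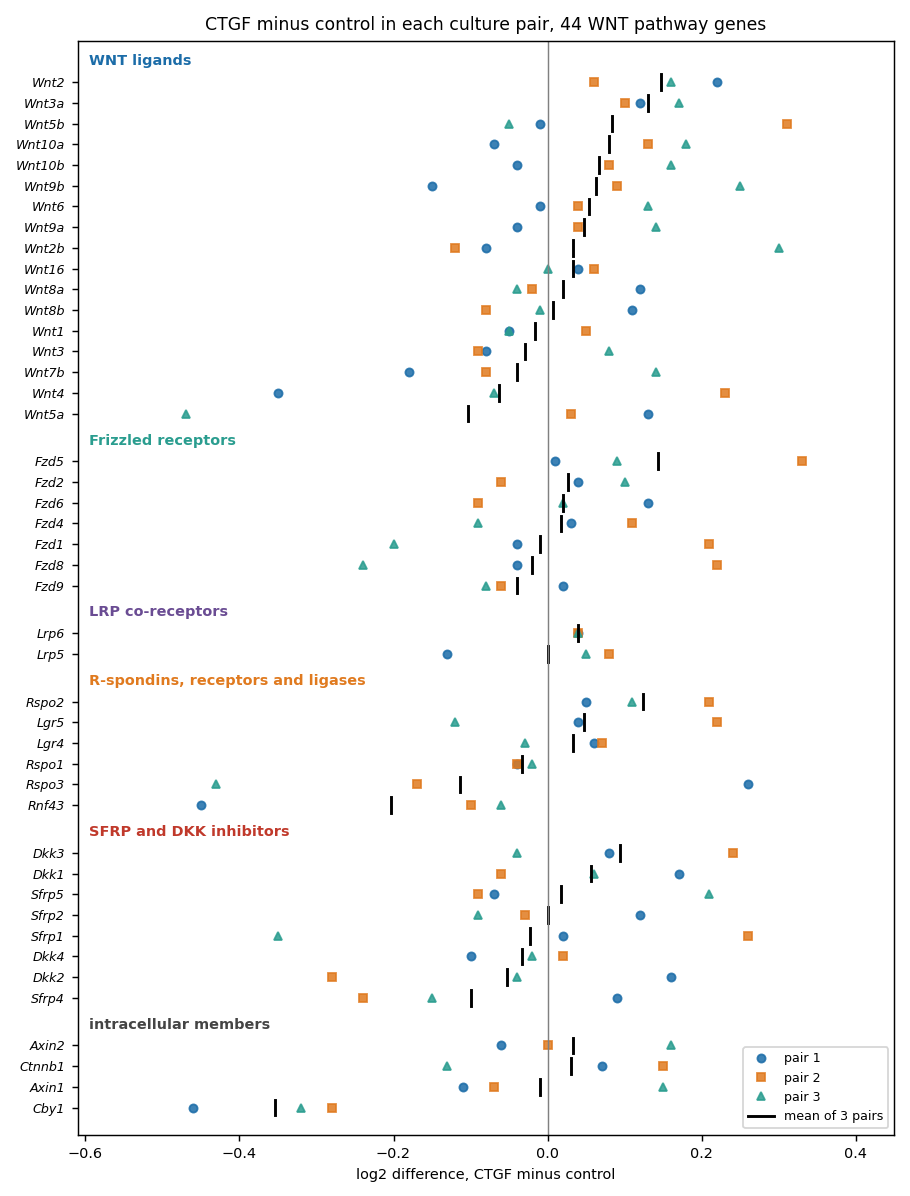
Log2 difference of CTGF minus control in each of the 3 culture pairs (symbols) and the mean of the 3 pairs (bar) for the 44 WNT pathway genes, grouped by role. Cby1 is the lowest gene with a mean of -0.35 and all 3 pairs at or below -0.28, while 36 of the 44 genes have pairs on both sides of 0 or at 0.

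The 3 pairs were read separately because a WNT gene could respond alike in each culture. The groups did not overlap for 5 genes that were higher in all 3 pairs (Wnt2, Wnt3a, Fzd5, Lrp6 and Rspo2), which is 11.4% of the 44 beside 9.41% of all probe sets. They did not overlap for 3 genes that were lower in all 3 pairs (Cby1, Rnf43 and Rspo1), which is 6.82% beside 10.9%. Both shares are near those of the whole array. The remaining 36 genes had mixed directions. Across the 44 genes the differences in pairs 1 and 2, 1 and 3, and 2 and 3 had Pearson correlations of 0.04, -0.097 and -0.004, beside 0.059, -0.132 and -0.137 across all probe sets. These describe genes within 6 arrays, and genes are not independent replicates.

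Whether a pathway gene was measured above background differed by role. Of the 44 genes 25 (56.8%) were above the level of 43.2, beside 55.3% of all probe sets. Among the WNT ligands these were 5 of 17, namely Wnt2b, Wnt4, Wnt5a, Wnt6 and Wnt9b, with mean signals of 49.0 to 340.0. Frizzled receptors were above it in 6 of 7 genes, all but Fzd9, and both LRP co-receptors were. Of the R-spondin group 5 of 6 were above it, all but Rspo3 at 32.6, and of the secreted inhibitors 3 of 8, namely Dkk3, Sfrp1 and Sfrp2. All 4 intracellular genes were above it. The other 19 genes were not above background, so a difference in them is a difference between dim signals. In whole ovaries, fewer cells of a type and less RNA per cell cannot be told apart.

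**Figure D2:**
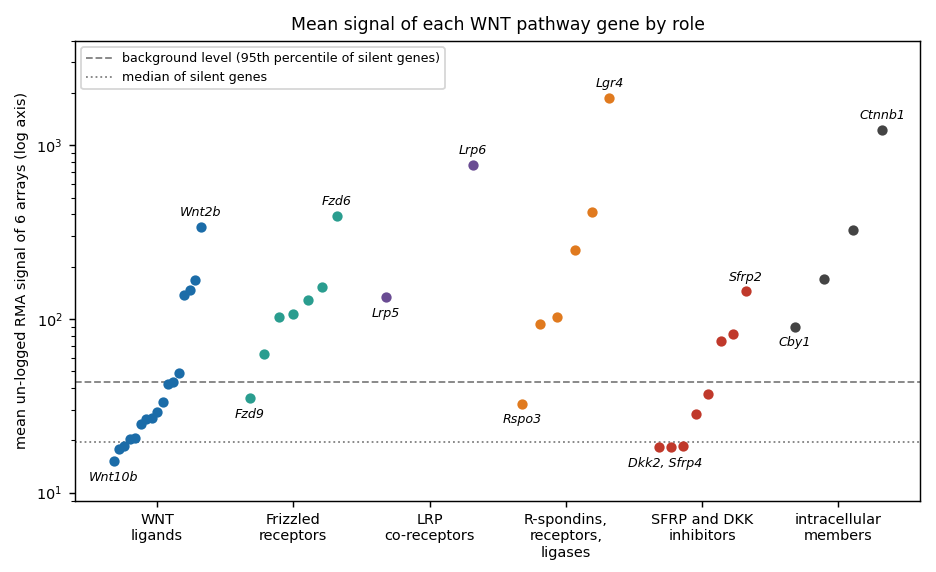
Mean un-logged signal over the 6 arrays of each of the 44 genes (points, log axis), by role, with the background level of 43.2 (dashed) and the median of the silent genes, 19.6 (dotted). Only each gene's place above or below background should be read, since signals of different probe sets are not on a common scale, and 12 of the 17 WNT ligands lie below the dashed line.

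Among the ligands, Wnt4 and Wnt5a were measured well above background and their pairs disagreed. Wnt4 directs the development of the female gonad. Its signal in pairs 1, 2 and 3 was 165, 135 and 150.1 in the control arrays and 129.8, 159 and 143 in the CTGF arrays. Wnt4 was thus lower with CTGF in pairs 1 and 3 and higher in pair 2, and the groups overlapped. The difference was -0.06 with a standard error (SE) of 0.11 and a 95% interval of -0.34 to 0.21 (limma, adjusted p = 0.994), and without pair 1 it was 0.08. The 10 pregranulosa markers, which include Wnt4, had medians of -0.07, 0.065 and 0.03 in the 3 pairs, with summed signals of 5399 to 5822 in control and 5470 to 5889 in CTGF arrays, and their part in the Wnt4 values was not tested.

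Wnt5a acts mainly through receptors that do not use β-catenin. In pairs 1 to 3 it read 131, 135 and 161 in control and 143, 138 and 116 in CTGF arrays. Wnt5a was lower only in pair 3. Since pair means are equal in the deposited data, its highest control and lowest CTGF signal necessarily fall in that pair. The mean difference was -0.10 ± 0.12 (SE), the lowest of the ligands, with a 95% interval of -0.40 to 0.19, and it was 0.08 without pair 3. In pair 3 the stromal and smooth muscle markers were also lower with CTGF, in 8 of 9 genes with a median of -0.43, beside 0.11 and 0.05 in pairs 1 and 2. Their summed signal was 5353 to 6625 in control and 4730 to 5855 in CTGF arrays. The part of the stromal markers in the Wnt5a values was not tested.

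Of the ligands, Wnt2 had the highest difference. Its signal was 39.1, 41.4 and 40.0 in the control arrays and 45.6, 43.1 and 44.6 in the CTGF arrays. All 3 CTGF values were above all 3 control values, but the mean signal of 42.2 was not above background. The difference was 0.15 with a 95% interval of -0.02 to 0.31 (limma, adjusted p = 0.994). Wnt3a, a ligand of the β-catenin branch, was also higher in all 3 pairs, at 25.6, 25.8 and 25.3 in control and 27.9, 27.7 and 28.4 in CTGF arrays, again below background. Its difference was 0.13 with a 95% interval of -0.02 to 0.28. Wnt10a and Wnt10b, both dim, had differences of 0.08 and 0.07 and were higher in pairs 2 and 3. Over the 17 ligands 12 were higher with CTGF and 5 lower, with a median of 0.03 and a range of -0.10 to 0.15. In pair 1 alone 6 were higher and 11 lower, in pair 2 it was 12 and 5, and in pair 3 it was 10 and 6 with 1 at 0.

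Several WNT ligand genes lie next to each other in the genome. RefSeq places 4 such pairs side by side among the measured genes, namely Wnt3a with Wnt9a and Wnt9b with Wnt3 on chromosome 10, Wnt10b with Wnt1 on chromosome 7 and Wnt6 with Wnt10a on chromosome 9. The neighbours Wnt3a and Wnt9a had differences of 0.13 and 0.05, and Wnt6 and Wnt10a had 0.05 and 0.08. In the other two, Wnt9b and Wnt3 had 0.06 and -0.03, and Wnt10b and Wnt1 had 0.07 and -0.02. Of these 8 genes Wnt6 and Wnt9b were above background.

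The Frizzled receptors, which bind the ligands, differed little. Their differences ran from -0.04 for Fzd9 to 0.14 for Fzd5, with a median of 0.02, 4 being higher and 3 lower. Fzd5 read 62.7, 56.1 and 60.97 in control and 63.1, 70.5 and 64.9 in CTGF arrays. Its groups did not overlap, but pair 1 differed by 0.01 and pair 2 by 0.33. The interval of the Fzd5 difference was -0.06 to 0.34. Fzd9, the dim one, read 34.8, 35.8 and 36.0 in control and 35.3, 34.3 and 34.1 in CTGF arrays, with overlapping groups. Fzd1 and Fzd8, named after their values were seen, were both higher in pair 2 (0.21 and 0.22) and lower in pair 3 (-0.20 and -0.24), and their means were -0.01 and -0.02.

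The co-receptors Lrp5 and Lrp6, which carry the signal with Frizzled, had the smallest differences of any role. Lrp6 had a signal of 760.1 in each of the 3 control arrays and of 781 in each of the 3 CTGF arrays. Its groups did not overlap, the difference was 0.04 in every pair, and the interval, which limma bases here on the spread of all probe sets, was -0.11 to 0.19. The deposited log2 values are rounded and pair means are equal, so that identical signals across arrays are not a measure of precision. Since Lrp6 has no spread between pairs in these rounded values, the methods' 2-way test gave it no p. Lrp5 read 140.1, 131 and 132 in control and 128, 138 and 136 in CTGF arrays. It was lower in pair 1 and higher in pairs 2 and 3, and its mean difference was 0.00 with an interval of -0.18 to 0.18.

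In the R-spondin group, the ligase Rnf43 had the lowest and the ligand Rspo2 the highest difference. Rnf43, which removes Frizzled from the cell surface, read 109.9, 97.0 and 95.7 in control and 80.5, 90.5 and 91.8 in CTGF arrays. Each CTGF value was below each control value, with pair 1 differing by -0.45 and pairs 2 and 3 by -0.10 and -0.06. The mean difference was -0.20 ± 0.09 (SE) with an interval of -0.43 to 0.02 (limma, adjusted p = 0.994). Rspo2 had 407, 385 and 399 in control and 422, 446 and 431 in CTGF arrays. All CTGF values of Rspo2 were higher, by 0.05, 0.21 and 0.11 in the 3 pairs, and the mean of 0.12 had an interval of -0.04 to 0.29.

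Rspo1, which acts with Wnt4 in the female gonad, had nearly equal signals throughout. Its signal was 103, 103 and 103 in control and 100.4, 100.4 and 101 in CTGF arrays. The groups did not overlap, yet the difference was only -0.03 with an interval of -0.19 to 0.12. Its pairs differed by -0.04, -0.04 and -0.02, close to the rounding of the deposited log2 values. The unadjusted p under 0.05 of Rspo1 in the methods' 2-way test rests on that small spread. Its receptors had overlapping groups. Lgr4 read 1846, 1833 and 1898 in control and 1924, 1924 and 1859 in CTGF arrays, a difference of 0.03 with an interval of -0.12 to 0.19. Lgr5, a marker of pregranulosa cells in the newborn ovary, read 247, 232 and 261 in control and 254, 271 and 241 in CTGF arrays. Lgr5 was higher in pairs 1 and 2 and lower in pair 3, with a mean of 0.05 and an interval of -0.16 to 0.25, and without pair 2 it was -0.04. Rspo3, a further R-spondin below background and named after its values were seen, differed by 0.26, -0.17 and -0.43 in the 3 pairs, the widest spread of the group.

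**Figure D3:**
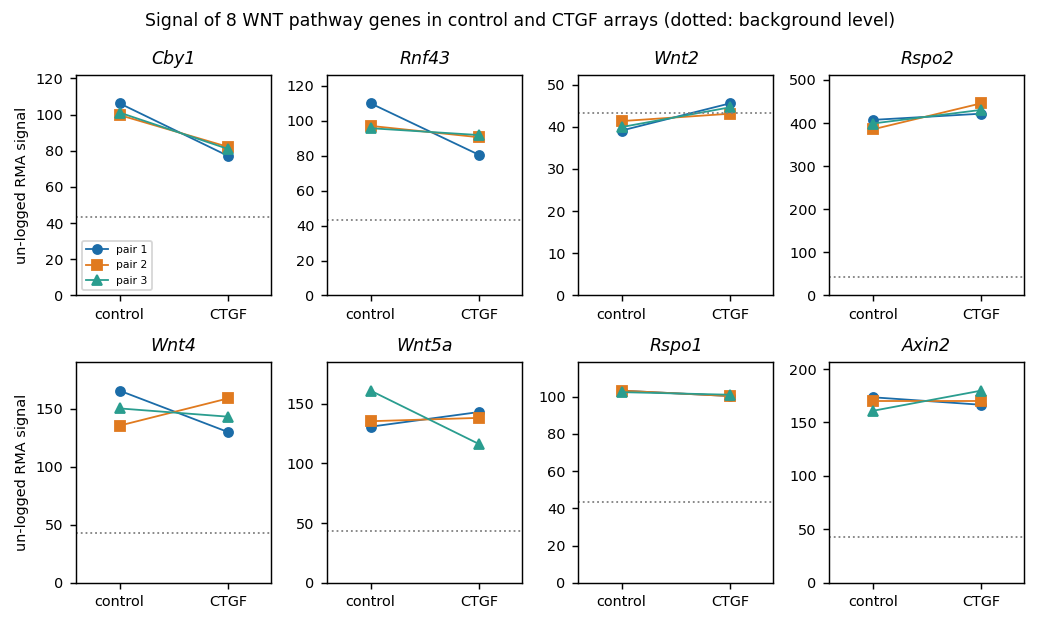
Un-logged signal of 8 WNT pathway genes in the control and CTGF array of each of the 3 pairs (linked symbols), with the background level of 43.2 dotted. The Cby1 lines run from 99.7 to 106 in control down to 77.2 to 82.1 in CTGF arrays. Those of Wnt4 and Wnt5a rise in some pairs and fall in others, and those of Rspo1 are nearly flat.

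The secreted inhibitors showed no common direction. Of the 8 genes 3 were higher, 4 lower and 1 at 0, with a range of -0.10 to 0.09, and none had groups that did not overlap. Sfrp1, which binds WNT proteins, read 74.0, 68.1 and 84.5 in control and 75.1, 81.6 and 66.3 in CTGF arrays. It was higher in pair 2 by 0.26 and lower in pair 3 by -0.35, so that the mean was -0.02 with an interval of -0.31 to 0.26, and 0.14 without pair 3. As with Wnt5a, the stromal marker median of -0.43 in pair 3 stands beside the Sfrp1 value, and its part was not tested. Dkk3, a divergent DKK protein, had 79.3, 75.1 and 82.7 in control and 83.9, 88.7 and 80.5 in CTGF arrays. Its difference of 0.09 was the highest of the inhibitors, with an interval of -0.09 to 0.28, and it was 0.02 without pair 2 and 0.16 without pair 3. Sfrp4 had the lowest, -0.10, at a signal below background, with 17.8, 20.0 and 19.3 in control and 18.9, 16.9 and 17.4 in CTGF arrays. Dkk1, a blocker of the LRP co-receptors, was not above background in any array, at 17.4, 18.9 and 18.1 in control and 19.6, 18.1 and 18.9 in CTGF arrays.

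**Figure D4:**
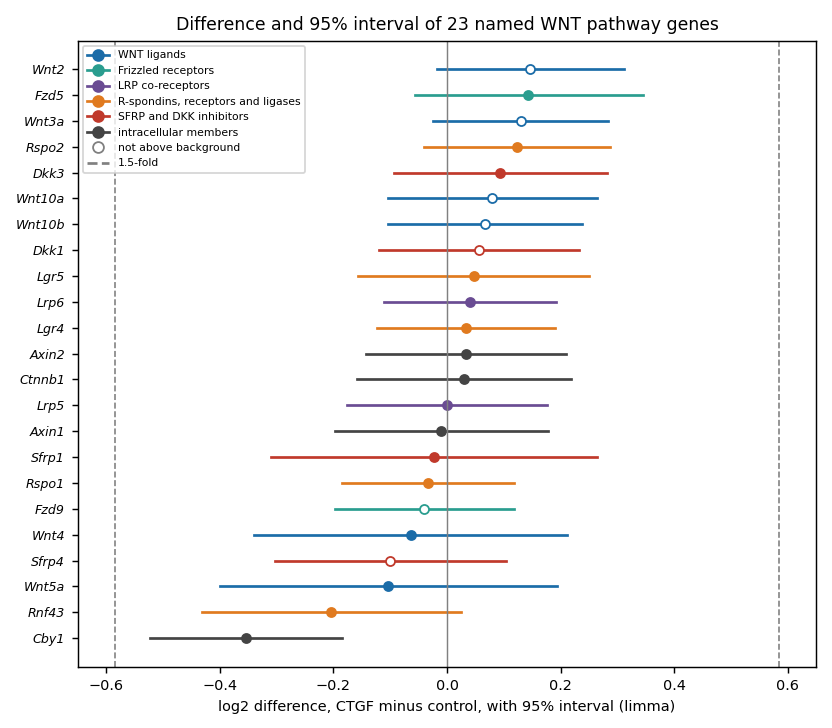
Log2 difference of CTGF minus control with its 95% interval from limma for the 23 named genes, coloured by role, with open symbols for genes not above background and dashed lines at 1.5-fold. Only the interval of Cby1, -0.52 to -0.185, leaves out 0, and all 23 intervals lie between the dashed lines. Intervals with open symbols describe dim signals and do not bound a change in the transcript.

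Inside the cell, Cby1 had the largest difference and the smallest p of the 44 genes. Cby1 (Chibby) binds β-catenin and keeps it from the TCF and LEF factors, and also serves at the base of cilia. Its signal was 106, 99.7 and 101 in control and 77.2, 82.1 and 81.0 in CTGF arrays, or 102 ± 3.38 and 80.1 ± 2.60 (SD, n = 3 each). Because pair means are equal in the deposited data, these SDs reflect only the pair differences. They hold no variation between culture dates and are not the spread of independent samples. The lowest control value lay above the highest CTGF value, and the pairs differed by -0.46, -0.28 and -0.32. The mean of -0.35 ± 0.07 (SE), a ratio of 0.783, had a 95% interval of -0.52 to -0.185. By limma the unadjusted p was 0.00203, the 24th smallest of all probe sets, and the adjusted p was 0.994. Cby1 was the 1 gene of the 44 (2.27%) that met the criteria of the study's methods, as did 119 probe sets or 0.435% of the array. These are a ratio over 1.2 or under 0.83, a difference of signals over 10 and an unadjusted p under 0.05. Here the p came from limma and the ratio was CTGF over control, where the methods state control over treatment. With the ratio in that direction 120 probe sets met the criteria, and of the 44 genes again only Cby1. The study listed Cby1 among its altered genes from these same samples, so the value is not independent evidence. With any 1 pair left out the difference stayed between -0.39 and -0.30.

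The other intracellular genes had overlapping groups. Ctnnb1, β-catenin itself, read 1201, 1168 and 1287 in control and 1261, 1296 and 1176 in CTGF arrays. It was higher with CTGF in pairs 1 and 2 and lower in pair 3. Its difference of 0.03 had an interval of -0.16 to 0.22, and without pair 2 it was -0.03. Axin1, the scaffold of the destruction complex, read 338, 333 and 309 in control and 313, 317 and 343 in CTGF arrays. It was lower in pairs 1 and 2 and higher in pair 3, with a mean of -0.01 and an interval of -0.20 to 0.18, 0.04 and 0.02 without pairs 1 and 2, and 0.0033 with array medians centred. Axin2, both a brake on the pathway and its standard target gene, read 174, 170.1 and 161 in control and 167, 170.1 and 179.8 in CTGF arrays. It was lower in pair 1, equal in pair 2 and higher in pair 3. The mean was 0.03 with an interval of -0.14 to 0.21, and without pair 3 it was -0.03.

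Promoters are shown for Cby1, because it had the largest difference, and for Axin2 and Dkk1. Both of the latter are targets of the pathway that carry CTTTGA, a form of the core of the TCF and LEF site. The sequences are the 250 bases before the start of the gene in RefSeq (GRCr8 assembly), read 5′ to 3′ on the strand of the gene, at chr7:113097062-113097311 (plus strand) for Cby1, chr10:94398535-94398784 (plus strand) for Axin2 and chr1:237798651-237798900 (minus strand) for Dkk1. Capitals mark CTTTGA or its reverse complement TCAAAG, the only motif searched.
Cby1: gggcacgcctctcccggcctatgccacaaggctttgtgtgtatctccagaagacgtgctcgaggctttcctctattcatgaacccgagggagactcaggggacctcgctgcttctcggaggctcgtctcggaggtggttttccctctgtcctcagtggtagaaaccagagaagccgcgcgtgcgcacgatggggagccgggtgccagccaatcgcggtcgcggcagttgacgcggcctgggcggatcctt
Axin2: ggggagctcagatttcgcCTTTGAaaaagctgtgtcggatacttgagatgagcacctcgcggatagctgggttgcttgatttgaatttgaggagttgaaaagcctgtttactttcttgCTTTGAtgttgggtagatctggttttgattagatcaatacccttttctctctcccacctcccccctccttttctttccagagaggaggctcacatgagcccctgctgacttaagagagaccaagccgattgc
Dkk1: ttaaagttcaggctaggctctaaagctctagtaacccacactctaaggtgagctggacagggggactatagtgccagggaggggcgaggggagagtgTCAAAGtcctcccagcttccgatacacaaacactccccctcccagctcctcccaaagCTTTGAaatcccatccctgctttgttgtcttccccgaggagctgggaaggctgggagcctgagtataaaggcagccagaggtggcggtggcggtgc
Axin2 holds the motif in 2 places on the strand of the gene, the farther 232 bases before the start, and Dkk1 holds it once on each strand. A promoter was matched for 29 of the 44 genes, and 3 of these (Axin2, Dkk1 and Wnt8a), or 10.3%, held the motif, beside 4656 of 33469 RefSeq promoters (13.9%). Cby1 had no match to CTTTGA or TCAAAG in this window. Nor did Rnf43, a further target of the pathway, in its own window, and no promoter was matched for the target Lgr5. Other forms of the site were not searched in any gene. The motif is a match of letters only, and the signals of Axin2 and Dkk1 differed by 0.03 and 0.06 between groups.

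The rest of the pathway was taken from 6 lists of its other genes. Over 67 measured genes outside the 44, none had an unadjusted p under 0.05 in limma, beside 3.35% of all probe sets, and the median difference was 0.0067, with 34 higher and 31 lower. Of the 3 genes for WNT secretion, Wls, which carries the ligands to the surface, had 0.02. The destruction complex and Dishevelled genes had a median of 0.02 over 14 genes and 0 called in either direction, the highest being Dvl3, a Dishevelled protein that passes the signal from Frizzled, at 0.16. The 13 nuclear effectors had a median of -0.0067, and both Lef1 and Tcf7, the DNA-binding partners of β-catenin, were near 0 at -0.0067 and -0.05. Over the 13 other antagonists and co-receptors the median was -0.03, and over the 14 non-canonical receptor and polarity genes 0.04.

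Of the lists, the target genes of β-catenin lie nearest to pathway output, but whether their signals follow that output in whole ovaries was not tested. The list holds 16 measured genes, 4 of them among the 44 (Axin2, Lgr5, Dkk1 and Rnf43). Dkk1 and Mmp7 were below background, and Lgr5 and Fst are also on the list of pregranulosa markers. Of these 16, 0 had an unadjusted p under 0.05 in either direction. By sign 5 were higher, 10 lower and 1 at 0, and the median was -0.035 beside -0.0033 over all probe sets. In the 3 pairs the median was -0.01, 0.02 and -0.05. In 3 of the 16 genes (18.8%) the CTGF signal was lower in all 3 pairs, beside 10.9% of all probe sets, and in 0 it was higher in all 3, beside 9.41%. Of the 67 pathway genes outside the 44, 3 (4.48%) were lower in all 3 pairs and 4 (5.97%) higher. Counts this small are no result about pathway output. The 3 target genes were Rnf43, already counted among the 44, Tcf7 and Tnfrsf19, a receptor of the tumour necrosis factor family. Tcf7 differed by -0.04, -0.06 and -0.04, and Tnfrsf19 by -0.09, -0.01 and -0.10. Other targets had mixed pairs, such as Ccnd1, a cyclin of the G1 phase, at 0.00, 0.02 and -0.54.

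The cell type markers had medians that lay farther apart between pairs than that of the WNT genes. The marker lists hold only 4 to 10 measured genes, beside 44, and a median over fewer genes varies more. The 3 genes for WNT secretion also moved, with medians of -0.05, 0.10 and 0.00. Germ cell markers had medians of 0.12, -0.205 and 0.27 in pairs 1, 2 and 3, and in pair 3 all 8 were higher with CTGF. Their summed signal was 5614 to 6421 in control and 5905 to 6732 in CTGF arrays. Surface epithelium markers had medians of 0.065, 0.075 and -0.31 over 4 genes, and endothelial markers -0.025, 0.055 and -0.235 over 6 genes. The 44 WNT genes had medians of 0.015, 0.04 and -0.015. Of the marker lists, unadjusted p under 0.05 was reached by Kit, the receptor on oocytes and mast cells (0.19), Cpa3, a mast cell protease (-0.82), Tyrobp, a leukocyte adaptor (-0.21), and Cd3e, a T cell gene below background (-0.16), all with adjusted p = 0.994 in limma. These are 1 of 8 germ cell, 2 of 6 mast cell and 2 of 9 leukocyte markers, beside 3.35% of all probe sets, with Kit on both of the former lists. The 6 mast cell markers had medians of 0.115, -0.315 and -0.035, with 2 higher and 4 lower in the mean. Of the 9 leukocyte markers 3 were higher and 6 lower. Leukocyte markers had medians of 0.08, -0.10 and -0.05 over 9 genes. The part of the marker lists in the difference of Cby1, which was -0.46, -0.28 and -0.32 in the 3 pairs, was not tested.

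**Figure D5:**
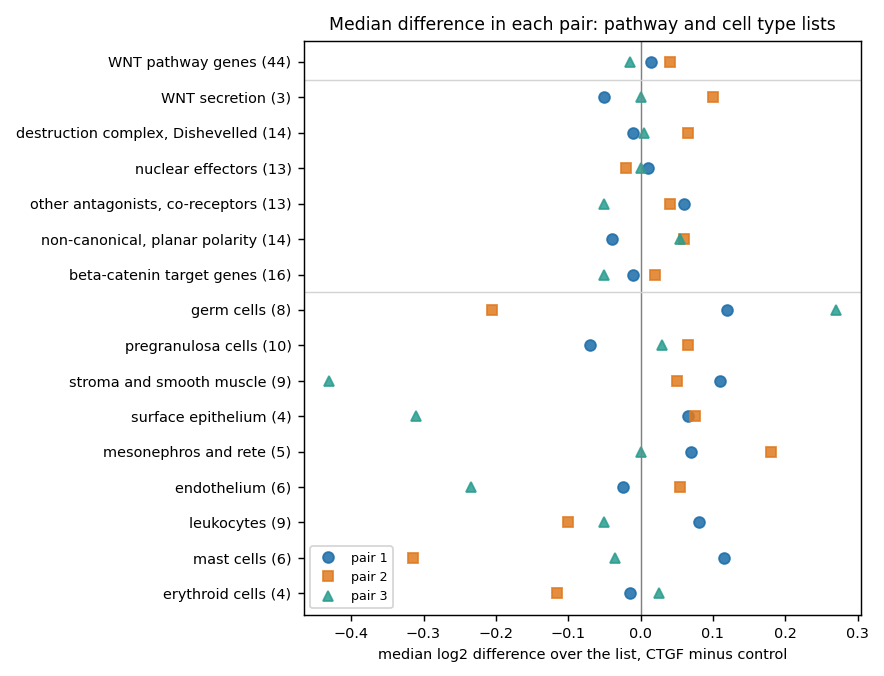
Median log2 difference of CTGF minus control in each of the 3 pairs for the 44 WNT genes, 6 pathway lists and 9 cell type marker lists, with the number of measured genes in brackets. The WNT and pathway medians stay between -0.05 and 0.10 in every pair, while stromal markers reach -0.43 in pair 3 and germ cell markers run from -0.205 to 0.27. The lists differ in size, and a median over fewer genes varies more.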

How the data were processed

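Total RNA of 6 samples was measured on Rat Gene 1.0 ST arrays. Per the labels, the authors processed the arrays with RMA in Partek, which gives log2 values per probe set, and the study's methods add an adjustment for GC content. The deposited log2 values were used without a filter, and 0 value columns were left unused. Signals in the text are 2 to the power of the deposited values. Samples were grouped by their labels and paired by replicate number. The replicate number was taken to stand for the organ culture date, for which the study's methods block. Pair means were equal for arrays paired by replicate number (a spread of at most 0.005). These pairs are therefore the blocks that were made equal before deposit. Whether the blocks are culture dates could not be checked from the values.

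Differences, intervals and p-values come from a linear model with treatment and, as a block, culture date (limma 3.58.1 with lmFit and eBayes, R 4.3.3), fitted on all 27342 probe sets with Benjamini-Hochberg adjustment. The fit has 2 residual and 4.22 prior degrees of freedom. With 3 pairs, an exact two-sided sign-flip test cannot go below p = 0.25, so none is given. The procedure was tested on simulated data. That test required mean estimates near the set changes, and detection only of changes far larger than those of the 44 genes. It does not show that differences of the size found here would be detected. Of a gene's probe sets the one with the highest mean would be used, but each of the 44 genes had 1.

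Names come from the platform annotation (15097 probe sets with 1 symbol, 323 with several, 11922 with none), and all 44 symbols are current in RefSeq. Array and RefSeq assemblies differ, so coordinates are given only for RefSeq promoters (GRCr8). The members and gene lists were chosen with earlier results of these data known. Named with values are 15 genes picked by role, of which Znrf3 was not measured, the 10 members with the smallest p, and the highest and lowest of each role group, 23 genes in all. Other members named with a value were named after their values were seen.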

Additional observations from a re-analysis of the deposited data

How the results depend on the processing

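No adjusted p fell under 0.05 for any of the 44 genes under the alternatives, which were a fit with no replicate block, quantile normalization, array medians centred, a filter at the background level, the methods' 2-way test, the trend and robust options of eBayes, and each pair left out. For the 23 named genes the lowest adjusted p was 0.061 (limma, Cby1 with no replicate block). With no replicate block 4415 probe sets in place of 915, and 5 WNT genes in place of 1 (Cby1, Rnf43, Wnt2, Wnt3a and Rspo2), had an unadjusted p under 0.05, because that fit counts residual degrees of freedom already used when pair means were equalised. With the methods' 2-way test there were 3 WNT genes (Cby1, Rspo1 and Wnt3a, 6.82%) beside 1147 or 4.2% of the probe sets with a p, and with the background filter, which tests fewer probe sets, 430 of all probe sets. At the study's criteria, 119 probe sets became 30 with the 2-way test, 217 with no minimum difference and 185 to 273 without 1 pair. Cby1 was the only WNT gene at these criteria under every alternative.

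Of the 23 named genes, 7 changed sign when 1 pair was left out. Their ranges were -0.09 to 0.04 for Axin1, -0.03 to 0.08 for Axin2, -0.03 to 0.11 for Ctnnb1, -0.04 to 0.13 for Lgr5, -0.165 to 0.14 for Sfrp1, -0.21 to 0.08 for Wnt4 and -0.22 to 0.08 for Wnt5a. Lrp5, at 0.00 in the main fit, had no sign to change and ran from -0.04 to 0.065 with 1 pair left out. Axin1 also changed sign, to 0.0033, with array medians centred. The cause was not tested. The mean over a gene's probe sets changes nothing with 1 probe set each. Signals near background, as in 19 of the 44 genes, limit what their differences can show.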
